A study of Homo sapiens with 4 samples.

Results

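Cohesin sites at the promoters of protein-coding genes that carry no CTCF peak were examined in HG00731, a human lymphoblastoid cell line (LCL, B cells made to grow without limit by Epstein-Barr virus). The sites were selected on measured values. They are the SMC1 HiChIP peaks on chromosomes 1 to 22 that shared no base with a CTCF HiChIP peak and lay no more than 1 kb from where a protein-coding transcript begins (a coding start) in the GENCODE annotation, release 44, of hg38. This gave 6994 of 94628 SMC1 peaks, or 7.39% (95% interval 7.23 to 7.56). They are called CTCF-free promoter peaks here. The 8943 SMC1 peaks at coding starts that did overlap a CTCF peak are called shared promoter peaks.

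HiChIP joins chromatin immunoprecipitation with proximity ligation, so that 1 library gives both the sites of a protein and the contacts made there. SMC1, a subunit of cohesin, was assayed in chromatin fixed with formaldehyde and then with ethylene glycol bis(succinimidyl succinate) (FA-EGS HiChIP). CTCF was assayed in chromatin of the same line fixed with formaldehyde alone (FA HiChIP), so target and fixation differ together and cannot be told apart. Each target had 2 replicates, which the authors pooled before calling the peaks and loops used here. Both targets come from 1 cell line without any treatment or altered gene.

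A pooled list holds no spread between replicates. No test was made, and the 95% intervals below (Wilson for shares, from ranks for medians) cover counting error only. Peak calling found 61417 CTCF peaks on the same chromosomes, and the lists hold no depth per library. The CTCF libraries had fewer reads than the SMC1 libraries by the account of the study, and the part of this in SMC1 peaks without a CTCF peak was not tested. The loop lists are called the SMC1-label and the CTCF-label list, with 27785 and 79406 loops on these chromosomes. Every SMC1-label loop had a CTCF peak at an anchor, and 11 had no SMC1 peak at either. Every CTCF-label loop had an SMC1 peak at an anchor, and 3654 had no CTCF peak at either. The loop caller keeps only pairs of bins with a peak of the assayed protein at an anchor, and the loop totals that the study gives for its targets are those of the opposite labels. The labels of the loop lists thus appear to be exchanged. They are kept as deposited, so an SMC1-label loop is to be read as a loop that had to have a CTCF peak, and a CTCF-label loop as a loop that had to have an SMC1 peak.

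Cohesin is a ring-shaped complex that holds DNA and extrudes it into loops. CTCF, a zinc finger protein bound to its motif in a fixed orientation, halts extruding cohesin, and many loop anchors carry both proteins. Cohesin is also known at active promoters without CTCF, where its loader NIPBL and the transcription machinery are found.

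Sequences at the summits of some strong CTCF-free promoter peaks are given as examples. The 6 sequences shown are among the 8 strongest peaks whose 150 bp around the summit touched no annotated exon. This choice leaves out summits at first exons, so the examples need not be typical. The summits of SLC44A2 and PPAN-P2RY11 lay at 1711 bp and −1256 bp from the nearest coding start. They are read from hg38 on the plus strand, with the summit in the middle. Their positions are ECE1 chr1:21294817-21294966, PPAN-P2RY11 chr19:10104892-10105041, SLC35F5 chr2:113756929-113757078, SLC44A2 chr19:10604146-10604295, FBXO22 chr15:75904281-75904430 and RUNX3 chr1:24965193-24965342. Capitals mark a match to any of the motifs searched below, on either strand, and the letters GATC, the site of DpnII, the enzyme that cut the chromatin in these HiChIP libraries.
ECE1: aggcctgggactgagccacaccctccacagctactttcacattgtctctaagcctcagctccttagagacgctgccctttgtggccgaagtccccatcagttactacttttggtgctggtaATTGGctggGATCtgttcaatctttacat
PPAN-P2RY11: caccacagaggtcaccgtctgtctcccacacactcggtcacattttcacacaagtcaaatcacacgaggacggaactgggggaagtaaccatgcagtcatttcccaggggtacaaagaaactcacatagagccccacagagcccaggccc
SLC35F5: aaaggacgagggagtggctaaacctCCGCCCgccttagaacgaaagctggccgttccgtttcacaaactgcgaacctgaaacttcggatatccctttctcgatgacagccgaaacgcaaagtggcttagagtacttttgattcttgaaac
SLC44A2: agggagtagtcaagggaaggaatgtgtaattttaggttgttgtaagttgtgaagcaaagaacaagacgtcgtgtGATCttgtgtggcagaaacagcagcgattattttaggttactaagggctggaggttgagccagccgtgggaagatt
FBXO22: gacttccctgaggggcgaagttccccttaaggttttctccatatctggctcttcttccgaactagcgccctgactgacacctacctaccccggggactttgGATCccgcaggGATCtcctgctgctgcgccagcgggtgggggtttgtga
RUNX3: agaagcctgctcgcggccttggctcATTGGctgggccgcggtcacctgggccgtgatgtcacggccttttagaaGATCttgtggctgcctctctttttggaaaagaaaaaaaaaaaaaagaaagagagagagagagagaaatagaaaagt
GATC occurred in 4 of these 6 sequences, and in SLC44A2 and RUNX3 it began at position 75 of 150, on the summit itself. A CCAAT box was present in ECE1 and RUNX3 and a GC box in SLC35F5. None of the 16 motifs was found in PPAN-P2RY11, SLC44A2 or FBXO22.

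The same coincidence held across the set. A DpnII site lay within 5 bp of the summit in 47.0% of the CTCF-free promoter peaks (45.9 to 48.2), against 1.86% for points 1000 bp to either side of the same summits and 1.68% for coding starts themselves. The share was 41.6% for shared promoter peaks, 35.8% for CTCF-free SMC1 peaks inside genes away from starts and 11.3% for CTCF summits. Within 100 bp of the summit, 86.3% of the CTCF-free promoter peaks held a GATC, against 31.1% of windows around coding starts. Positions and motif shares are therefore given also around the centre of the peak where that moved them. The part of the cut sites in the position of the summits and in the calling of peaks was not tested. The DpnII counts were added after the results for the other motifs had been seen.

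CTCF-free promoter peaks were weaker and narrower than shared promoter peaks, and stronger than CTCF-free SMC1 peaks elsewhere. Because both peak lists chose the members, these values describe the set. The median −log10 q-value, the significance given by the peak caller, was 12.96 (12.7 to 13.2) at the CTCF-free promoter peaks and 37.6 (36.9 to 38.4) at the shared promoter peaks. It was 6.70 at the 26491 CTCF-free SMC1 peaks inside coding genes and 7.17 at the 16633 between genes. The median fold enrichment, the signal of the summit relative to its surroundings, followed the same order, with 3.11 (3.07 to 3.14), 4.59, 2.68 and 2.76. The median width was 578.5 bp against 1023 bp at shared promoter peaks. Within the CTCF-free promoter peaks the −log10 q-value ran from 2.05 to 151.68, and 228 peaks (3.26%) reached 50.

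The share of promoter peaks without CTCF fell as the SMC1 peak grew stronger. Of the SMC1 peaks at coding starts, 43.9% (6994 of 15937) lacked a CTCF peak, and away from starts 54.8%. At coding starts the share was 88.1% below a −log10 q-value of 5, 76.8% from 5 to 10, 61.8% from 10 to 20, 33.6% from 20 to 50 and 6.58% at 50 or more. The strongest of these peaks thus overlapped a CTCF peak in most cases, while the weakest rarely did.

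**Figure D1:**
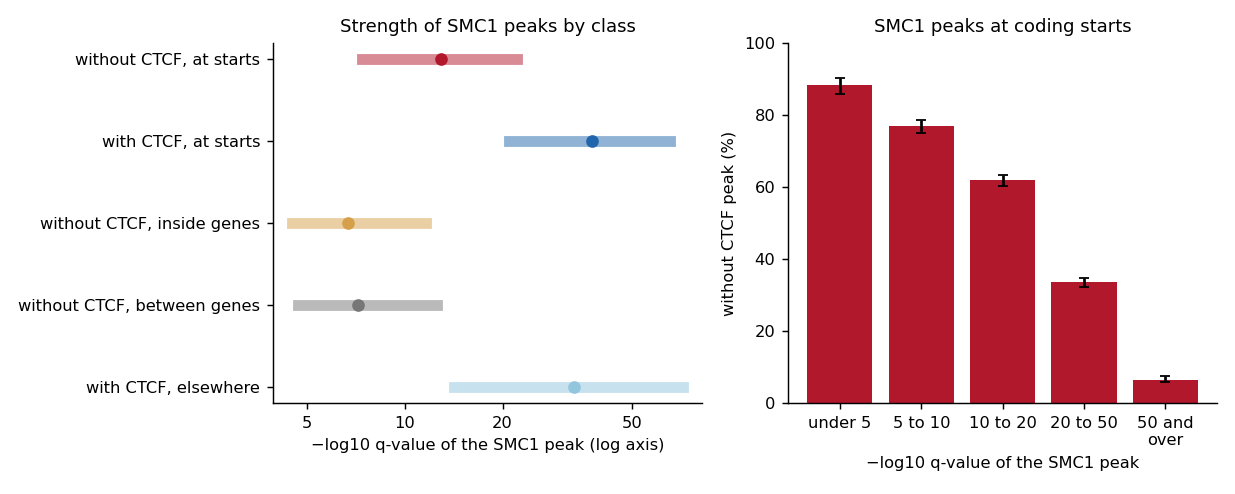
Left: −log10 q-value of SMC1 peaks (log axis) in 5 classes, with the median as a point and the middle 50% of peaks as a bar. Right: percent of SMC1 peaks at coding starts without a CTCF peak in 5 ranges of −log10 q-value, with 95% Wilson intervals. The median was 12.96 without and 37.6 with CTCF at starts, and the share without CTCF went from 88.1% to 6.58%.

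Most CTCF-free promoter peaks had a CTCF peak in the same neighbourhood. The median distance to the nearest CTCF peak was 5614 bp (5374 to 5926). It was within 1 kb for 18.9% of the peaks, within 5 kb for 47.2% and within 20 kb for 82.5%. Distances for other SMC1 peaks are not given here, so these shares are not set against a background. The fold enrichment had a median of 2.84 (2.79 to 2.90) at the 1324 peaks within 1 kb of a CTCF peak and 3.54 (3.49 to 3.64) at the 1222 peaks more than 20 kb away. The −log10 q-value differed little over these groups, with medians of 12.9 and 13.2. At the limits of the rule, peaks near NEK6 and SPTSSA lay 2 bp from a CTCF peak and counted, with fold enrichments of 1.64 and 3.84. Peaks at GPR35 and MAP4 shared 2 bp and 3 bp with a CTCF peak and did not count, with 2.15 and 2.58. On the distance limit, peaks at PCSK6 and SIPA1L3 lay 1000 bp from a start with fold enrichments of 2.77 and 2.72. Peaks near CDX2 and RPLP1 lay at 1001 bp with 2.86 and 2.71.

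The peaks gathered around the start but lay further from it than shared promoter peaks, on both sides and more so downstream. A start lay inside 40.3% of the CTCF-free promoter peaks (39.2 to 41.5) and inside 60.5% of the shared promoter peaks. The summit was downstream of the nearest coding start in 55.9% (54.8 to 57.1) against 48.7% (47.6 to 49.7). The median summit position was 55.5 bp downstream (42 to 68) against −4 bp (−8 to −1). Measured from the centre of the peak, the medians were 83 bp (69 to 101) and 17 bp (8 to 25) downstream. The summit was within 100 bp of a start in 19.2% of the CTCF-free promoter peaks and 24.9% of the shared ones.

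**Figure D2:**
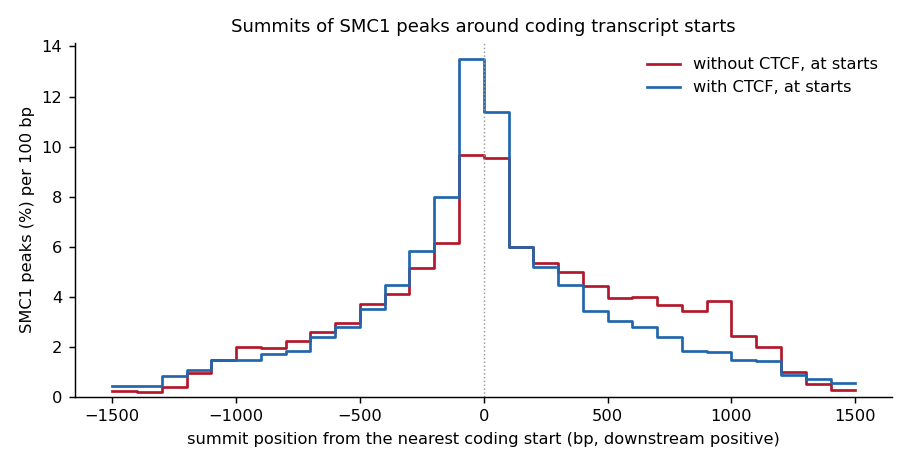
Percent of SMC1 peaks per 100 bp of summit position relative to the nearest coding start (bp, in the direction of transcription), for 6994 CTCF-free and 8943 shared promoter peaks. Both classes are highest at the start, and the CTCF-free peaks lie above the shared ones from 100 bp to 1300 bp downstream and from −1000 bp to −400 bp upstream.

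The strongest CTCF-free promoter peak was at HELZ2, a helicase that acts as a nuclear receptor coactivator (chr20:63567639-63568405, −log10 q-value 151.68, fold enrichment 14.5, summit 27 bp downstream of a start). Its nearest CTCF peak lay 4.55 kb away, and 2 loops of the CTCF-label list were anchored there. The peak at SMAP2, an ArfGAP of vesicle transport, followed with 134.65 and 6.36 (chr1:40374014-40375268), and neither loop list had an anchor there. ECE1, the endothelin-converting enzyme, had 109.07 and 7.58 (chr1:21294498-21295186), with 4 loops labelled CTCF.

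CPOX, an enzyme of haem synthesis, reached 107.13 with a fold enrichment of 5.96 (chr3:98593369-98594112), and each list had 1 loop there. TACO1, a translational activator of a mitochondrial respiratory chain subunit, reached 100.8 and 7.60 (chr17:63600368-63601455). Its loop labelled SMC1 had 99 read pairs. The other peaks among the 10 strongest were at NPIPB11 (99.8), TAF4B (99.2), a subunit of the general transcription factor TFIID, the readthrough gene PPAN-P2RY11 (98.4), AFF4 (95.2), a scaffold of the super elongation complex, and CCDC50 (92.4), whose start is close to that of UTS2B. Like SMAP2, AFF4 and NPIPB11 had no loop in either list. NPIPB11 belongs to a gene family in segmental duplications, so its peak is uncertain. Of these 10 peaks, 8 had their summit within 500 bp of a start. Those of NPIPB11 and PPAN-P2RY11 lay at 1297 bp and −1256 bp from it, with the edge of the peak inside the limit of 1 kb.

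CTCF-free promoter peaks were found at 6053 of 18765 protein-coding genes, a background of 32.3% against which the gene lists below are read. Of these genes, 3707 had only CTCF-free SMC1 peaks within 1 kb of a start, and 2346 also had a shared promoter peak at the same or another start. A further 5997 genes had only shared promoter peaks, 341 had a CTCF peak without an SMC1 peak, and 6374 had neither. A gene with more annotated starts had more chances to qualify. The median was 4 distinct starts for genes with a CTCF-free peak, 3 over all genes and 2 for genes without an SMC1 peak, and of the 4510 genes with 1 start 17.7% had a CTCF-free peak. SEPTIN9, a cytoskeletal GTPase gene with several promoters, had 8 such peaks. Most genes had 1 (4574 genes), and 9.72% of the peaks were near starts of genes on both strands. By chromosome, the share of genes with a CTCF-free peak ran from 24.2% on chromosome 21 to 37.1% on chromosomes 2 and 22.

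Genes of the B cell had a share of CTCF-free promoter peaks above this background. Every one of the 19 measured B cell markers had an SMC1 peak at a start, and 14 of them (73.7%, 51.2 to 88.2) had a CTCF-free one. For 8 of the 14 these were the only SMC1 peaks at their starts. These were MS4A1, which encodes CD20, CD79A, a chain of the B cell receptor complex, the B lineage transcription factor EBF1, the adaptor BLNK, the ETS factor gene SPIB, VPREB3, CD37 and CD72. Those with both kinds included CD22, PAX5, CD40, FCRLA and TCL1A, while CD79B, CD74, FCER2, POU2AF1 and CR2 had only shared ones. Of 21 markers of T cells, myeloid cells, erythroid cells and liver, 5 had an SMC1 peak at a start and 1 (4.76%), TTR, a CTCF-free one.

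The peak at CD79A was the strongest of the B cell markers, with a −log10 q-value of 53.4 and a fold enrichment of 3.45 (chr19:41876656-41877433), its summit 28 bp upstream of the start. VPREB3 had 31.0, TCL1A 30.7 and CD22 26.1. At the low end were PAX5, the B lineage transcription factor, with 7.17, and SPIB with 5.07. The peak of CD79A anchored 3 loops labelled SMC1 and 5 labelled CTCF, and that of CD22 3 and 5, while VPREB3 had 0 and 1. The B cell markers thus ran from 5.07 to 53.4 with a median of 18.5 for the strongest CTCF-free peak per gene, beside 15.7 over all genes with such a peak.

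Genes of NF-κB signalling and B cell activation gave 13 of 24 (54.2%, 35.1 to 72.1). The subunit genes REL (40.7), RELA (43.99) and RELB (49.2) had only CTCF-free peaks, NFKB1 (35.5) had both kinds and NFKB2 only shared ones. The chemokine gene CCL22 had the strongest peak of the list, with a −log10 q-value of 61.3 and a fold enrichment of 4.99, and its nearest CTCF peak lay 19.2 kb away. CD86, a costimulatory ligand, had 53.7, and ICAM1, an adhesion molecule, had 49.2. The ICAM1 peak lay 0.489 kb from a CTCF peak and anchored 4 loops labelled SMC1 and 10 labelled CTCF, whereas that of CD86 anchored none. The list had a median of 35.5 for its strongest CTCF-free peak per gene, the highest of the lists examined.

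Interferon-stimulated genes gave 19 of 31 (61.3%, 43.8 to 76.3). The antiviral GTPase MX2 (63.4), the oligoadenylate synthetase OAS1 (58.2) and IFIT5 (40.4) were among the genes with the strongest peaks of this list. MX2, OAS1 and IFIT5 had no loop labelled SMC1 at these peaks, and 3, 6 and 2 loops labelled CTCF. Of the replication-dependent histone genes 29 of 53 (54.7%, 41.5 to 67.3) had a CTCF-free peak, among them H2BC5 (51.3), H1-4 (44.2), H1-2 (42.9) and H2AC12 (41.4) on chromosome 6. These genes stand close together, and a peak can serve more than 1 of them. DNA replication and cell cycle genes gave 24 of 42 (57.1%, 42.2 to 70.9), led by CCND3 (42.9), a G1 cyclin, GINS3 (42.2), a replicative helicase subunit, ORC1 (41.3) of the origin recognition complex and PCNA (37.9), the sliding clamp.

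Genes of general cell maintenance lay nearer to the background. Cytosolic ribosomal protein genes gave 29 of 75 (38.7%, 28.5 to 49.98), led by RPL21 (83.1) and RPL37 (54.4). Mitochondrial respiratory chain and ATP synthase genes gave 21 of 54 (38.9%, 27.0 to 52.2), led by NDUFS7 (76.0) and COX4I1 (67.4). Spliceosome and SR protein genes gave 14 of 40 (35.0%, 22.1 to 50.5), led by SF3B4 (44.2), and proteasome genes 14 of 34 (41.2%, 26.4 to 57.8), led by PSMC3 (44.1). RNA polymerase II and Mediator genes gave 18 of 41 (43.9%, 29.9 to 59.0), led by POLR2E (40.8). The interval of each of these 5 lists holds the background of 32.3%. Between 86.7% and 97.6% of their genes had an SMC1 peak at a start, against 64.2% of all coding genes. Among genes with an SMC1 peak at a start, 50.2% of all coding genes had a CTCF-free one. Each of these 5 lists lay below this share. The 5 lists had only 31 to 65 genes each with an SMC1 peak at a start. No interval was computed for the shares that follow, so whether they differ from 50.2% cannot be told. Ribosomal protein genes had 44.6%, respiratory chain and ATP synthase genes 40.4% and spliceosome and SR protein genes 35.9%. Proteasome genes had 45.2%, and RNA polymerase II and Mediator genes 45%. Replication and cell cycle genes had 57.1%, interferon-stimulated genes 65.5% and B cell markers 73.7%.

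The genes of cohesin, its loader and CTCF gave 8 of 15 (53.3%, 30.1 to 75.2). SMC3 (14.4), a core subunit, WAPL (15.7), the release factor, and ESCO2 (8.92), an acetyltransferase, had only CTCF-free peaks. NIPBL (16.2), CDCA5 (19.4), CTCF (7.80), ZNF143 (8.90) and MAZ (26.5) had both kinds. With the start of the canonical transcript alone, an alternative chosen after seeing the data, the share of this list was 26.7% and that of all coding genes 26.5%. Gene lists of other tissues had lower shares, and most or many of their genes had no SMC1 peak at a start. Of 23 neuronal and muscle genes 2 (8.70%), SYT1 (6.70) and TH (4.70), had a CTCF-free peak, and of 27 olfactory receptor genes of chromosome 11 1 (3.70%), OR52H1 (13.2). Of the 11 neuronal and muscle genes with an SMC1 peak at a start, 18.2% had a CTCF-free one, as did 20% of the 5 markers of T cells, myeloid cells, erythroid cells and liver, and the 1 olfactory receptor gene with such a peak. Expression was not measured in this series.

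**Figure D3:**
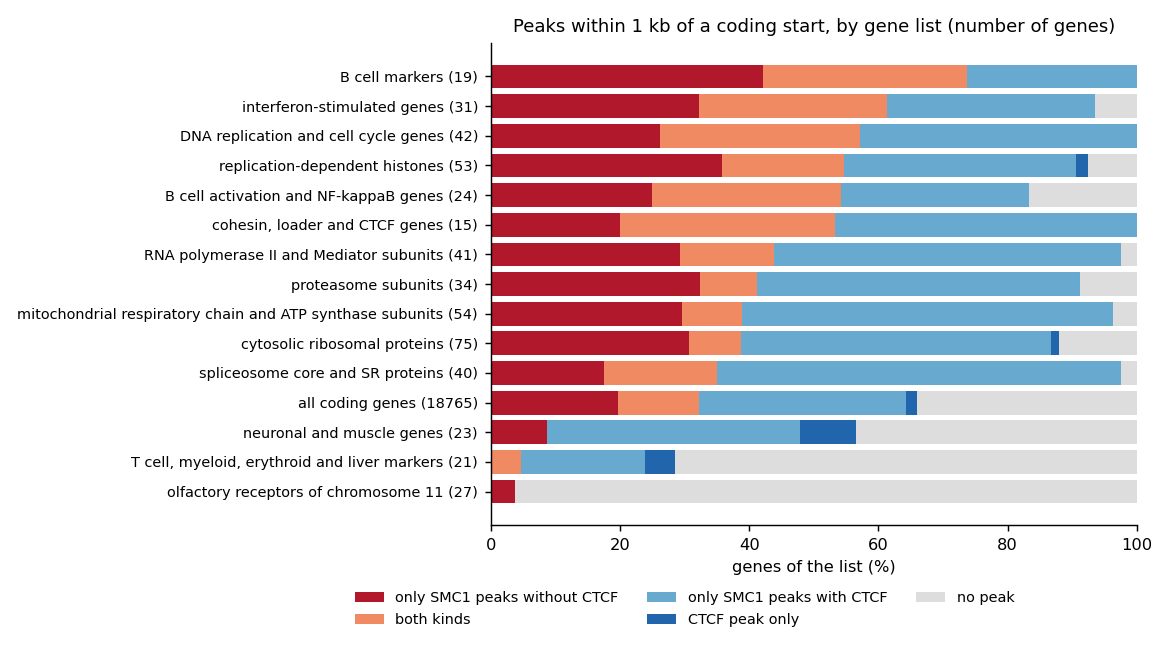
Percent of the genes of each list (number of genes in parentheses) with only CTCF-free SMC1 peaks, both kinds, only shared SMC1 peaks, a CTCF peak alone or no peak within 1 kb of a coding start. CTCF-free peaks were at 73.7% of the B cell markers, 32.3% of all coding genes and 3.70% of the olfactory receptors.

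CTCF-free promoter peaks were at loop anchors less often than shared promoter peaks in both lists. In the SMC1-label list part of this follows from how the list was made. Each of its loops has a CTCF peak at an anchor, and each shared promoter peak overlaps a CTCF peak by the rule. An anchor is a 5 kb bin. In the SMC1-label list, 18.8% of the CTCF-free promoter peaks overlapped an anchor (1316 peaks, 17.9 to 19.7), against a background of 22.3% over all SMC1 peaks and 38.1% (37.1 to 39.1) at shared promoter peaks. In the CTCF-label list it was 50.2% (3510 peaks, 49.0 to 51.4), against a background of 51.4% and 70.0% (69.0 to 70.9). CTCF-free SMC1 peaks inside genes had 11.7% and 37.4%, and those between genes 11.7% and 35.8%. These classes were weaker. Below a −log10 q-value of 5, the CTCF-label shares were 33.9% at CTCF-free promoter peaks, 25.3% inside genes and 22.8% between genes. From 20 to 50 they were 60.6%, 62.4% and 59.9%, and at 50 or more 70.2%, 83.9% and 77.95%. The SMC1-label shares in the same order were 15.5%, 7.67% and 7.26% below 5. They were 21.1%, 19.4% and 18.9% from 20 to 50, and 21.5%, 27.4% and 25.8% at 50 or more. CTCF-free promoter peaks thus did not have the higher share at every strength. Of the 6994 peaks, 1173 (16.8%) were anchored in both lists, 143 only in the SMC1-label list, 2337 (33.4%) only in the CTCF-label list and 3341 (47.8%) in neither.

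The difference between CTCF-free and shared promoter peaks moved with the strength of the peak. Below a −log10 q-value of 5, 15.5% (13.2 to 18.3) of the CTCF-free and 16.3% (10.5 to 24.6) of the shared promoter peaks were anchored in the SMC1-label list, and 33.9% and 31.7% in the CTCF-label list. At 50 or more, the shares were 21.5% (16.7 to 27.3) against 56.5% (54.7 to 58.2) for SMC1-label loops. Part of this difference, too, follows from how the SMC1-label list was made. For CTCF-label loops at 50 or more they were 70.2% (63.9 to 75.7) against 86.9% (85.7 to 88.0). From 5 to 10 they were 43.0% (40.8 to 45.3) against 41.25% (37.2 to 45.4) for CTCF-label loops. From 10 to 20 they were 51.1% (49.1 to 53.2) against 54.2% (51.6 to 56.7). The intervals of CTCF-free and shared promoter peaks thus overlapped in each range below 20 in the CTCF-label list. In the SMC1-label list they overlapped below 5 alone. The share of anchored CTCF-free peaks thus went from 33.9% to 70.2% over the range of strength for CTCF-label loops. For SMC1-label loops it went from 15.5% (13.2 to 18.3) below 5 to 21.1% (19.3 to 22.996) from 20 to 50, and was 21.5% at 50 or more, where 228 peaks were left.

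The share of anchored peaks moved with the distance to the nearest CTCF peak. For SMC1-label loops, each of which has a CTCF peak at an anchor, part of this follows from how the list was made. Of the CTCF-free promoter peaks within 1 kb of a CTCF peak, 31.9% (29.5 to 34.5) were anchored in the SMC1-label list. The share was 29.3% from 1 to 5 kb, 11.9% from 5 to 20 kb and 1.72% (1.13 to 2.61) beyond 20 kb. For CTCF-label loops it was 66.0% (63.4 to 68.5), 64.5%, 41.9% and 26.7% (24.3 to 29.2). An anchor bin is wide enough to hold a CTCF peak beside the CTCF-free one. This was so for 58.4% (55.7 to 61.0) of the anchored peaks in the SMC1-label list and 42.2% (40.6 to 43.8) in the CTCF-label list. The CTCF-free promoter peak was the only SMC1 peak of an anchor bin without CTCF for 27.6% and 36.0% of the anchored peaks. Which peak of a bin the contact belongs to cannot be told apart at this bin size.

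**Figure D4:**
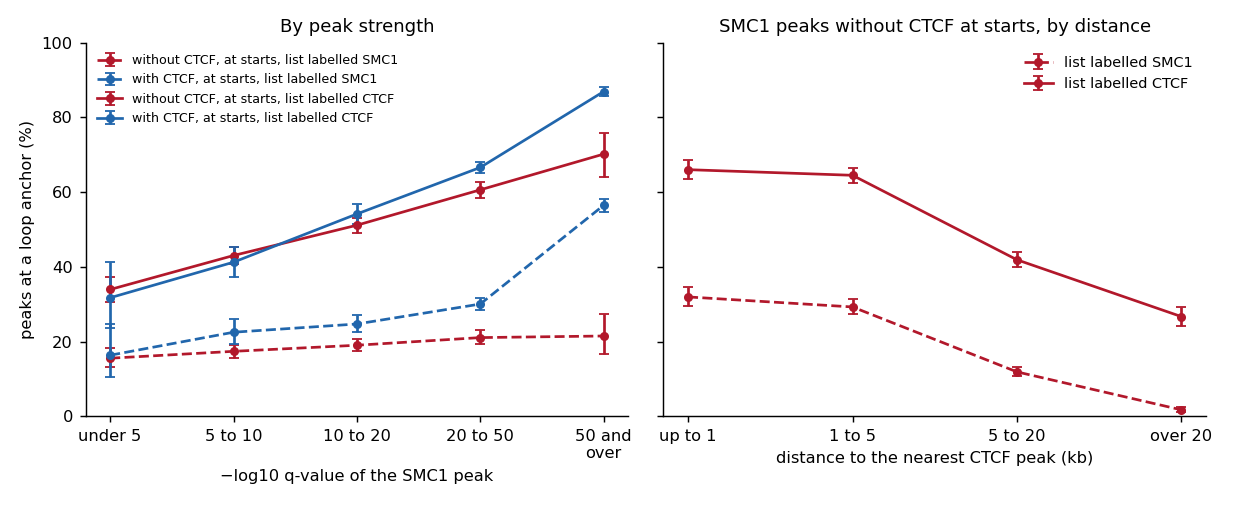
Percent of SMC1 peaks at a loop anchor with 95% Wilson intervals, by −log10 q-value for CTCF-free and shared promoter peaks (left) and by distance to the nearest CTCF peak in kb for CTCF-free promoter peaks (right), for SMC1-label (dashed) and CTCF-label (solid) loops. From under 1 kb to over 20 kb the share went from 31.9% to 1.72% and from 66.0% to 26.7%.

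The far ends of loops at CTCF-free promoter peaks held CTCF peaks at shares within the range of the other classes of SMC1 peaks. A loop was counted once for each of its anchors that held such a peak. Among CTCF-label loops, 67.5% (66.5 to 68.4) of 9222 far anchors held a CTCF peak. The share was 67.7% (67.5 to 67.97) over all SMC1 peaks, 64.3% (63.7 to 64.9) for shared promoter peaks, 71.2% for CTCF-free peaks inside genes and 69.2% between genes. Among SMC1-label loops the far anchor must hold a CTCF peak wherever the near anchor does not, so loops with a CTCF peak in the near bin were compared, a split added after seeing the data. There the share was 76.7% (74.7 to 78.5) of 1937, against 70.9% (70.1 to 71.8) for shared promoter peaks, 72.6% over all SMC1 peaks, 79.4% inside genes and 75.96% between genes. A coding start lay at 33.3% (31.5 to 35.1) and 32.2% (31.2 to 33.1) of the far anchors, beside 32.8% and 29.6% for shared promoter peaks and 27.5% and 24.1% over all SMC1 peaks. Another CTCF-free promoter peak was at 5.54% (4.72 to 6.49) and 9.37% (8.79 to 9.98) of the far anchors, beside 5.79% and 7.73% for shared promoter peaks and 4.88% and 5.98% over all SMC1 peaks.

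Where the near anchor held no CTCF peak, 72.5% (71.1 to 73.9) of 4081 far anchors of CTCF-label loops did, against 74.6% over all SMC1 peaks. Of these 4081 far anchors 11.1% (10.2 to 12.1) held another CTCF-free promoter peak, against 8.38% (8.04 to 8.74) over all SMC1 peaks. Loops of CTCF-free promoter peaks had a median span of 110 kb in the SMC1-label list and 90 kb in the CTCF-label list, against 110 kb and 100 kb for shared promoter peaks. They had a median of 23 and 26 read pairs, 3.68 and 3.27 times the number expected by the loop caller.

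Loops without a CTCF peak at either anchor can occur in the CTCF-label list alone. They were 1000 (11.4%, 10.7 to 12.1) of the 8790 CTCF-label loops with a CTCF-free promoter peak, and 4.60% (4.46 to 4.75) of all loops of that list. The rule for the peaks itself lowers the share of their bins with a CTCF peak. These 1000 loops were short, with a median span of 60 kb (55 to 65) against 100 kb (95 to 100) for the other 7790. They had a median of 23 read pairs against 26, and 3.01 times the expected number (2.95 to 3.07) against 3.34 (3.30 to 3.37). When a CTCF peak within 5 kb of either anchor also counted, 190 of the 1000 were left.

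The loops of this kind with the most read pairs, picked for naming after their values were seen, were on chromosome 12 at CD27 and TAPBPL. The bin chr12:6425001-6430000 joined the bin of CD27, a TNF receptor family member of memory B cells, 20 kb away with 256 read pairs, 2.72 times the expected number. It joined the bin of TAPBPL, a tapasin-like protein of antigen presentation, 25 kb away with 201 read pairs, 2.51 times the expected number. SEMA7A, a semaphorin gene on chromosome 15, anchored a loop of 30 kb with 175 read pairs (2.26 times).

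Among all loops with a CTCF-free promoter peak, those with the most read pairs had a CTCF peak at both anchors. With the SMC1 label these were a loop of 15 kb at CSK, a kinase that restrains SRC family kinases, with 289 read pairs, 1 of 35 kb at KLC2, a kinesin light chain, with 241, and 1 of 30 kb at RNF41, a ubiquitin ligase, with 219. With the CTCF label they were a loop of 30 kb at ARHGEF17 (455 read pairs, 7.43 times the expected number), 1 of 120 kb at PIM1, a serine/threonine kinase gene (407, 9.86 times), and 1 of 40 kb at SCIMP, an adaptor of antigen-presenting cells (402, 6.43 times).

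The number of loops per peak was skewed. Among anchored CTCF-free promoter peaks the median was 1 loop in the SMC1-label list and 2 in the CTCF-label list, and 61.4% and 39.1% had a single loop. At least 10 loops were anchored at 32 and 137 peaks. The most were at MARCKS, a substrate of protein kinase C, where 2 peaks in 1 bin shared 45 loops labelled SMC1 with 1291 read pairs and 27 labelled CTCF with 1134. RAI1 had 40 and 31, TRIB1 36 and 23 and KCNIP2 28 and 23. The most CTCF-label loops were at SEMA6A (34), ABTB2 (34, shared by 2 peaks), MGAT5 (32) and CABLES1 (31). These 10 peaks had fold enrichments from 1.65 to 2.55, below the median of all CTCF-free promoter peaks, and lay between 0.058 and 1.79 kb from a CTCF peak.

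The DNA around the summits was promoter-like, though less so than around shared promoter peaks. The summits also lay further from the nearest coding start, with a median of 392 bp against 303 bp. The part of this distance in the sequence values was not tested. The ratio of observed to expected CpG in the 201 bp around the summit had a median of 0.524 (0.509 to 0.536) at CTCF-free promoter peaks, 0.672 (0.662 to 0.683) at shared promoter peaks, 0.175 at CTCF-free peaks inside genes and 0.722 around all 75398 coding starts. The GC content had medians of 54.2%, 60.2%, 43.3% and 63.2%. Of the CTCF-free promoter peaks, 42.3% (41.2 to 43.5) had a CpG ratio of at least 0.6, against 3.20% inside genes.

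A CTCF motif was rare at CTCF-free promoter peaks. The rule removed CTCF peaks, so this describes the set. A motif of 19 bp learned from CTCF summits, with the minimum score that 1% of control windows reached, had a hit in 0.529% of the CTCF-free promoter windows (37 of 6994, 0.384 to 0.728). The background was 9.30% of all SMC1 summit windows, and the share was 9.87% (9.27 to 10.5) at shared promoter peaks and 2.53% around coding starts. The search found the motif at 15.9% of CTCF summits that took no part in learning it, so most CTCF sites pass unseen in such a window. The share did not differ between peaks within 1 kb of a CTCF peak (0.453%, 0.208 to 0.985) and peaks more than 20 kb away (0.327%, 0.127 to 0.839) beyond their intervals. The core letters AGGNGGCNC were in 5.42% (4.91 to 5.97) of the windows, against 10.1% at shared promoter peaks and 8.51% around starts.

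Motifs of promoter-bound factors lay between the levels of coding starts and of other CTCF-free peaks. Windows were searched on both strands. GGGCGG, the GC box of SP and KLF factors, was in 24.98% (23.98 to 26.0) of the CTCF-free promoter windows, 35.9% at shared promoter peaks, 3.36% at CTCF-free peaks inside genes and 43.8% around all coding starts. Around peak centres it was 22.6%. CCGGAAGT, an ETS motif, was in 1.19% (0.958 to 1.47), 2.05%, 0.170% and 4.12%. AAGATGGCG, a YY1 motif, was in 0.615%, 0.883%, 0.0642% and 2.03%, and GCGCATGCG, of NRF1, in 0.458%, 0.962%, 0.0113% and 1.46%. TGACGTCA, of CREB and ATF factors, was in 0.543%, 0.704%, 0.109% and 1.53%, and around peak centres in 0.372%. CACGTG, of MYC and USF, was in 3.89%, 4.54%, 2.63% and 5.13%. For the YY1, CREB and MYC motifs the intervals of CTCF-free and shared promoter peaks overlapped.

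The octamer, PU.1, RUNX, AP-1 and IRF motifs were more frequent at CTCF-free peaks inside genes than around starts, and CTCF-free promoter peaks again lay between. ATGCAAAT, the octamer of OCT factors, was in 1.10% (0.882 to 1.37) of the CTCF-free promoter windows, 0.861% at shared promoter peaks, 2.42% at CTCF-free peaks inside genes and 0.716% around coding starts. GAGGAAGT, of PU.1, which shares 6 letters with the ETS motif, was in 1.83% (1.54 to 2.17), 1.30%, 2.35% and 1.66%. TGTGGTT, of RUNX, was in 3.29% (2.90 to 3.73), 2.63%, 6.20% and 2.32%, TGACTCA, of AP-1, in 3.10% (2.72 to 3.54), 2.42%, 5.35% and 2.43%, and GAAAGTGAA, of IRF factors, in 0.601% (0.445 to 0.811), 0.347%, 0.883% and 0.358%. Around peak centres the RUNX motif was in 2.82% of the CTCF-free promoter windows. For these 5 motifs the intervals of CTCF-free and shared promoter peaks overlapped. TATAAA, the TATA box, was in 7.55% (6.95 to 8.19), 4.50% (4.08 to 4.94), 15.8% and 5.77%.

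CCAAT, bound by NF-Y, was in 21.4% (20.5 to 22.4), 19.1% (18.3 to 19.9), 23.1% and 22.96% of the same windows. GGGANTTCC, of NF-κB, was in 1.03% (0.818 to 1.29), 1.11%, 0.861% and 1.25%, and CCCAGNATG, of ZNF143, in 1.02% (0.806 to 1.28), 1.10%, 1.20% and 1.37%. For the motifs of NF-κB and ZNF143 the intervals of CTCF-free and shared promoter peaks overlapped. The windows also differ in GC content, which moves with these shares, and in distance from a start. The part of either was not tested. A match of letters is no bound site.

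**Figure D5:**
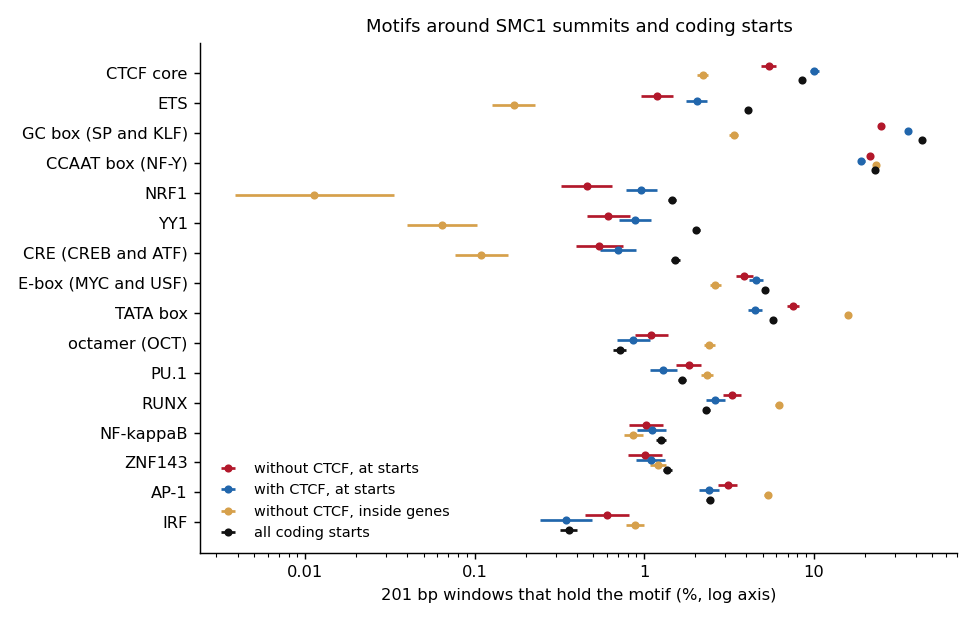
Percent of 201 bp windows that hold each of 16 motifs (log axis) with 95% Wilson intervals, around summits of CTCF-free promoter peaks, shared promoter peaks and CTCF-free peaks inside genes, and around all coding starts. The GC box was in 24.98% of the CTCF-free promoter windows and 43.8% of the start windows, and the octamer in 1.10% and 0.716%.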

How the data were processed

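HiChIP of SMC1 (FA-EGS) and CTCF (FA) in the HG00731 LCL was analysed from 1 peak list and 1 loop list per target, pooled over 2 replicates. Per the study's methods, BWA-MEM alignments to hg38 were cleared of duplicates, and the authors ran MACS3 3.0.1 on them for peaks. The deposited fold enrichment is the ratio of signal to local background at the summit, and the authors deposited significance as the −log10 of the q-value. The authors deposited raw counts of read pairs per pair of 5 kb bins beside the number that MAPS expects. The false discovery rates (q-values) that the authors deposited for loops were not used. In the labels, the growth protocol spells the line HG00721.

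Overlaps needed 1 bp. Starts were those of transcripts of type protein_coding. The CTCF motif was learned from the 3000 CTCF summits of the highest −log10 q-value on odd-numbered autosomes. The learning step was changed once, on CTCF summits alone, because a first form found few of them. Named genes were the 10 strongest peaks, the 5 peaks with most loops and the 3 loops with most read pairs per list, up to 4 genes per gene list, and the values at the limits. Some of the items these rules chose are not reported here. Other genes were named after their values were seen. Members and gene lists were chosen with earlier results of these data known. Of the genes listed, 11 had no coding start on chromosomes 1 to 22 and were left out. Scripts ran in Python 3.11.15 with NumPy 2.4.6, SciPy 1.17.1, pandas 2.3.3 and pysam 0.24.0, and were tested on simulated intervals and a planted motif. Alternatives are given in the closing section.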

Additional observations from a re-analysis of the deposited data

How the results depend on the processing

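No paired analysis was possible because the lists pool both replicates, and for the same reason no replicate could be left out. The lists hold no depth per library. Of 150 alternatives over 47 values, 17 for the main comparisons and 65 for single motifs and gene lists stayed within the interval of the value, or within 1.5 times a count, and 35 and 33 did not. The number of CTCF-free promoter peaks ran from 4370 with SMC1 peaks under a −log10 q-value of 10 left out to 9109 with such CTCF peaks left out. With starts within 500 bp the medians were 14.6 (−log10 q-value) and 3.25 (fold enrichment), and with no CTCF peak within 2000 bp the fold enrichment was 3.26. The share anchored in the SMC1-label list was 20% for peaks of at least 10, 17.9% with the summit inside the anchor, 29.6% with anchors widened by 5 kb, 12.9% with no CTCF peak within 2000 bp and 12.0% for loops with at least the median read pairs. In the CTCF-label list these were 56.1%, 49.0%, 59.9%, 42.8% and 36.0%. In each of these settings the share was below that of shared promoter peaks, which in the SMC1-label list follows in part from how it was made. Counting only CTCF peaks of at least 10, anchor bins with CTCF were 45.2% and 32.2%, and far anchors with CTCF 75.3% and 59.0%, in the lists labelled SMC1 and CTCF. With the start inside the far anchor, 28.2% and 27.1% held one. Loops labelled CTCF without a CTCF peak within 5 kb of either anchor numbered 190. Genes with a CTCF-free peak were 26.8% at 500 bp, 37.7% at 2000 bp, 22.98% for peaks of at least 10 and 26.5% with canonical starts. The CTCF core was in 2.36% and 7.99%, and the ETS motif in 0.601% and 1.76%, of windows of 50 bp and 150 bp on either side. The learned CTCF motif was in 0 of 6994 windows (interval up to 0.0549%) at the score of 0.1% of control windows. At the score of 5% of control windows it was in 5.69%. It was in 0.114% of windows of 500 bp on either side. There the minimum score was set anew on 1% of control windows of that length, 3 kb away. This share is thus not at the same score as the others. The CpG ratio around peak centres was 0.496. The median position was 137 bp downstream with canonical starts and 83 bp for peak centres. The canonical starts for genes, the 500 bp windows and the peak centres were chosen after seeing the data. The cause of these shifts was not tested.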
